A study of Sus scrofa with 32 samples.

Results

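The antigen presentation genes of the pig examined here were B2M, TAP1, TAP2, TAPBP, PSMB8, PSMB9, NLRC5, CIITA, CD74 and SLA-DRA. These 10 genes were matched by their symbols alone, and gave 11 of the 30185 gene records of the count tables, since B2M has 2 records, 110255236 and 397033. They were followed in 4 endometrial compartments isolated by laser capture microdissection, a method that cuts chosen cells out of a tissue section under the microscope. The compartments were the stroma (S), the blood vessels (BV) and 2 epithelia, that of the uterine lumen (LE) and that of the glands (GE). Endometrium came from gilts (young sows) on Day 14, 4 of them pregnant (P39, P41, P43 and P139) and 4 cyclic (C40, C42, C78 and C128), named by the group letter and the number in the labels. All gilts had been brought into estrus with the gonadotropins eCG and hCG. The pregnant group was inseminated with semen, and the cyclic, nonpregnant group with the supernatant of centrifuged semen of the same boar. In pregnant gilts the sampled tissue came from the reddened zones where conceptuses had lain, so the place of sampling and pregnancy cannot be told apart. Each library came from an individual gilt, and a gilt gave libraries in several compartments. A GE library of P41 was not analysed here. Pregnant GE therefore had n = 3 and every other group n = 4, 31 libraries in all.

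Cells display peptides on proteins of the major histocompatibility complex (MHC), which in the pig is called swine leukocyte antigen (SLA). Class I molecules, a heavy chain paired with the light chain B2M, are carried by nearly all nucleated cells and show peptides from inside the cell. The immunoproteasome subunits PSMB8 and PSMB9 cut those peptides, the transporter of TAP1 and TAP2 moves them into the endoplasmic reticulum, and TAPBP (tapasin) helps to load them. Class II molecules show peptides taken up from outside and are typical of professional antigen presenting cells. SLA-DRA is the alpha chain of such a molecule, and CD74 (the invariant chain) guards its groove until loading. NLRC5 and CIITA are the transactivators that switch on class I and class II genes, both by way of a DNA-bound complex of RFX, CREB and NF-Y proteins. Interferon gamma, which the pig conceptus secretes around the time of attachment, is a known inducer of both pathways.

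TAP1, TAP2, PSMB8 and PSMB9 lie next to each other on chromosome 7, with TAP2 at chr7:25045085-25056915, PSMB8 at chr7:25058456-25061666, TAP1 at chr7:25062772-25071989 and PSMB9 at chr7:25072133-25077508 (Sscrofa11.1, NCBI annotation). TAP1 and PSMB9 point away from each other, and 143 bases separate their starts. SLA-DRA at chr7:24825037-24830650 and TAPBP at chr7:29663491-29673453 are on the same chromosome. Outside it lie the B2M records at chr1:126837721-126844043 and chr1:126865767-126878501, CD74 at chr2:151402210-151409924, CIITA at chr3:32171706-32230775 and NLRC5 at chr6:18933179-19036288. The coding exons of the 2 B2M records were identical in 357 of 357 bases, so that how reads were shared between them depends on the counting, and their split is uncertain.

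The stretch of 250 bases before each annotated start was searched on both strands for CCAAT (the NF-Y box), TGACG (the core of a CREB site) and GAAANNGAA (the core of an interferon response element). The string TTCNNNGAA was searched for as well. The record B2M (397033) was left out, because its annotated start is partial. CCAAT was found before 3 of 10 records (TAP1, CD74 and SLA-DRA), and before 31.9% of all 19548 protein-coding genes. GAAANNGAA was found before 3 of 10 records (B2M 110255236, PSMB9 and SLA-DRA) and before 6.71% of all genes, and TGACG before 2 of 10 (TAP1 and NLRC5) and before 19.6% of all. TTCNNNGAA was found before 0 of 10 records and before 6.11% of all genes. A match is a string of letters in these windows and no evidence of binding. The windows of CD74 and SLA-DRA are shown because SLA-DRA was the gene most like CD74 over the libraries, and short stretches before B2M and PSMB9 because each held a pair of GAAANNGAA matches that overlap each other. Capitals mark the matches, and each sequence reads 5′ to 3′ toward the start of its gene.
SLA-DRA, chr7:24824787-24825036, plus strand: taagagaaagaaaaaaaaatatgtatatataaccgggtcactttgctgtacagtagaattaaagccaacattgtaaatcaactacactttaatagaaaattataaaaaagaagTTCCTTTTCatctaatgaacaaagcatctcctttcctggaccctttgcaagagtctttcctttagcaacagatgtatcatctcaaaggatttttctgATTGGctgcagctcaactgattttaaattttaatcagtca
CD74, chr2:151409925-151410174, minus strand: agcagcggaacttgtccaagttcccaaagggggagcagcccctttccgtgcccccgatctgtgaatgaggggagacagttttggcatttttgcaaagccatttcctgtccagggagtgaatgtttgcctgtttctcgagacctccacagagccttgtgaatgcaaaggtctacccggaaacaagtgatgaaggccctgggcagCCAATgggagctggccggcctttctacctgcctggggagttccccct
B2M (110255236), chr1:126844045-126844074, minus strand: agacttaGAAAATGAAACTGAAaacgggtt
PSMB9, chr7:25071963-25071992, plus strand: tttatggGAAAGGGAAAACGAAagcggccg
The far end of the CCAAT match lay 47 bases before the start of CD74. For SLA-DRA, with the match on the opposite strand, it lay 40 bases before the start. The paired matches spanned 24 to 10 bases before the start of B2M (110255236). Those before PSMB9 spanned 163 to 149 bases and thus lay beyond the shared interval, inside the annotated TAP1 gene.

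Library totals ranged from 2415220 to 7081560 counts, with a median of 3624020. Markers of the compartments were checked before the comparisons. Summed CPM (counts scaled to a common library size, normalized within the compartment) of 7 epithelium markers was 2214 to 3231 in LE and 1468 to 1899 in GE, and 2.43 to 43.01 in cyclic BV against 142 to 263 in pregnant BV. CDH1, the adhesion protein of epithelia, rose in pregnant BV (4.60 ± 2.75 to 62.7 ± 22.2 CPM, SD, n = 4 each, edgeR quasi-likelihood adjusted p = 0.0130). In LE the epithelium list went both ways: the keratins KRT8 and KRT7 fell in pregnant libraries, while CDH1 had 864 ± 113 CPM in cyclic and 1186 ± 38.0 in pregnant LE and CLDN4, a claudin of tight junctions, 285 ± 94.6 and 442 ± 61.0 (adjusted p = 0.0939 and 0.139, edgeR, n = 4 each, neither called). The smooth muscle actin ACTA2 fell in pregnant S. In BV, smooth muscle markers had a summed level of 5670 to 17393 CPM in cyclic libraries, 6617 in gilt P139 and 1027 to 2395 in the other pregnant gilts. Of these genes 6 of 6 were lower, 5 of them at an unadjusted p under 0.05 (28.5% of all genes) and 0 called (median log2 fold change -1.71). The part of these cells in the results of BV was not tested. Fibroblast markers were also high in the epithelial captures, with sums of 4317 to 16705 CPM in LE. In samples of many cells, fewer cells of a type and less RNA per cell cannot be told apart.

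NLRC5, CIITA, CD74 and SLA-DRA had positive log2 fold changes of pregnant over cyclic libraries in all 4 compartments, from 0.14 for SLA-DRA in BV to 4.39 for NLRC5 in GE (2.61 without gilt P139). The class I members were positive in GE, BV and S, with values up to 2.47 for TAP1 in GE (0.75 without gilt P139), and lay on either side of 0 in LE. None of these differences passed the limit for a call. Levels of the genes were compared between pregnant and cyclic libraries of each compartment with the quasi-likelihood test of edgeR over all genes that the authors kept. The limit of the study was used: genes of LE passed at 1% false discovery rate, which here came to an unadjusted p of 3.28e-04, and the same p was then the limit for the other compartments. Under it 0 of the 11 records in LE and S and 0 of the 10 records in GE and BV were called. The shares of all tested genes called were 3.32% for LE, 0.748% for GE, 1.86% for BV and 0.293% for S. PSMB9 was below the filter of the authors in GE and BV and was not tested there. An unadjusted p under 0.05 was reached by 8 of 11 records in S (14.5% of all genes), 5 of 10 in GE (23%), 4 of 11 in LE (26.9%) and 1 of 10 in BV (28.5%). The Wald test of DESeq2 called 5 records in GE (6.64% of all genes), 1 in LE (11.2%), 1 in S (2.6%) and 0 in BV (8.5%). The robust GLM of edgeR, which is the test of the study, called 3 records in GE (6.66% of all genes), 2 in LE (11.8%), 2 in S (3.16%) and 0 in BV (11%). These calls, all higher in the pregnant group, were CIITA in LE and S by both tools, CD74 in LE by the robust GLM, NLRC5, CD74 and SLA-DRA in GE by both, TAP1 and CIITA in GE by DESeq2 and NLRC5 in S by the robust GLM. All 4 pregnant libraries lay above all cyclic ones for 3 of 11 records in LE (10.3% of all genes), 1 of 10 in BV (8.99%) and 1 of 11 in S (3.85%), and all 3 did so for 2 of 10 in GE (11%). The median log2 fold change over the tested records was 1.86 in GE, 1.11 in S, 0.49 in BV and 0.14 in LE, beside a median over all genes between -0.01 and 0.00. Without gilt P139 the median was 0.49 in GE, 0.54 in S and 0.05 in LE, and without gilt P43 it was 0.18 in BV.

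**Figure D1:**
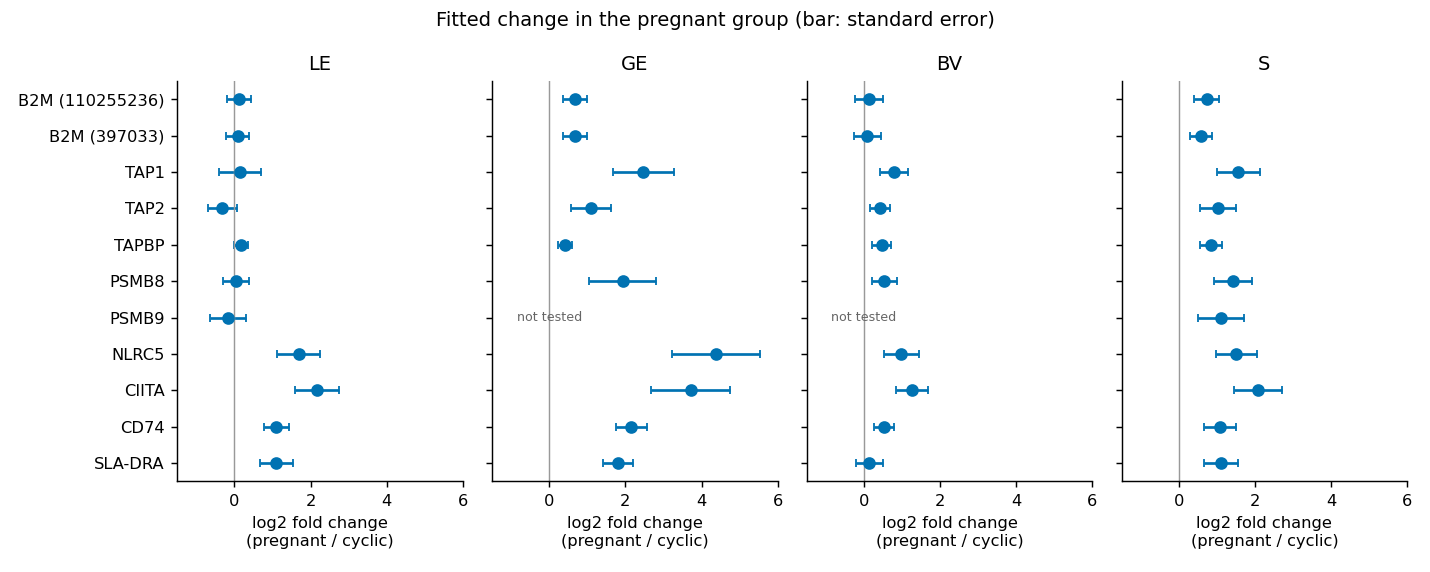
Fitted log2 fold change of pregnant over cyclic libraries for each record (points) with its standard error (bars), by compartment. NLRC5 and CIITA had the largest values of the records tested in LE and GE, whereas the B2M, TAP, TAPBP and PSMB records stayed between -0.32 and 0.17 in LE.

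NLRC5, the transactivator of class I genes, had 10.4 ± 1.16 CPM in cyclic LE (SD, n = 4), with single libraries between 8.91 and 11.6. The pregnant LE libraries held 84.3 CPM in gilt P139, 18.7 in gilt P39, 16.1 in gilt P41 and 14.3 in gilt P43. All pregnant libraries thus lay above all cyclic ones, 3 of them narrowly and gilt P139 by far. The log2 fold change was 1.68 ± 0.57 (SE, edgeR quasi-likelihood adjusted p = 0.0909), and 0.65 without gilt P139. In GE, cyclic libraries held little NLRC5, with 4.58, 1.25, 0.665 and 1.17 CPM in gilts C128, C40, C42 and C78, which were 3 to 20 counts a library. In pregnant GE, gilt P139 had 97.6 CPM, gilt P43 had 22.0 and gilt P39 had 1.68. Gilt P39 was within the cyclic range, so the groups overlapped despite a log2 fold change of 4.39 ± 1.16 (adjusted p = 0.0858, edgeR), which was 2.61 without gilt P139 and 5.29 without gilt C128. In S, pregnant gilts P43 and P139 had 157 and 150 CPM, gilt P39 had 39.4 and gilt P41 had 23.6, against 27.7 to 42.3 in cyclic S. Only gilts P43 and P139 were above the cyclic range there, and gilt P41 was below it (log2 fold change 1.51 ± 0.55, edgeR adjusted p = 0.260). BV had another order, with 116 CPM in gilt P43, 35.5 in gilt P41, 31.1 in gilt P39 and 25.3 in gilt P139, against 18.6 to 30.8 in cyclic BV. The log2 fold change in BV was 0.98 ± 0.46 (adjusted p = 0.192, edgeR), and 0.23 without gilt P43.

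CIITA, the master switch of class II genes, had 4.08 to 9.44 CPM in cyclic LE. Pregnant LE had 75.6 CPM in gilt P139, 21.9 in gilt P39, 16.3 in gilt P43 and 13.9 in gilt P41. The groups did not overlap (log2 fold change 2.16 ± 0.58, SE, edgeR adjusted p = 0.0450), and without gilt P139 the value was 1.27. In GE the cyclic libraries held 0.443 to 2.24 CPM, from 2 to 9 counts a library, and the pregnant ones 46.0 in gilt P139, 8.43 in gilt P43 and 1.40 in gilt P39. As for NLRC5, gilt P39 lay among the cyclic libraries (log2 fold change 3.71 ± 1.04, adjusted p = 0.0966, edgeR), and without gilt P139 the value was 1.77. In S, pregnant gilts P139, P43, P39 and P41 had 213, 93.3, 46.8 and 16.7 CPM, against 15.7 to 26.5 in cyclic S. The first 3 of these were above the cyclic range and gilt P41 inside it (log2 fold change 2.08 ± 0.63, edgeR adjusted p = 0.198), and without gilt P139 the value was 1.25. In BV all pregnant libraries, at 92.1, 31.1, 30.2 and 23.1 CPM in gilts P43, P39, P139 and P41, were above the cyclic range of 12.8 to 21.9. The log2 fold change there was 1.25 ± 0.42 (adjusted p = 0.0923, edgeR), and 0.60 without gilt P43.

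**Figure D2:**
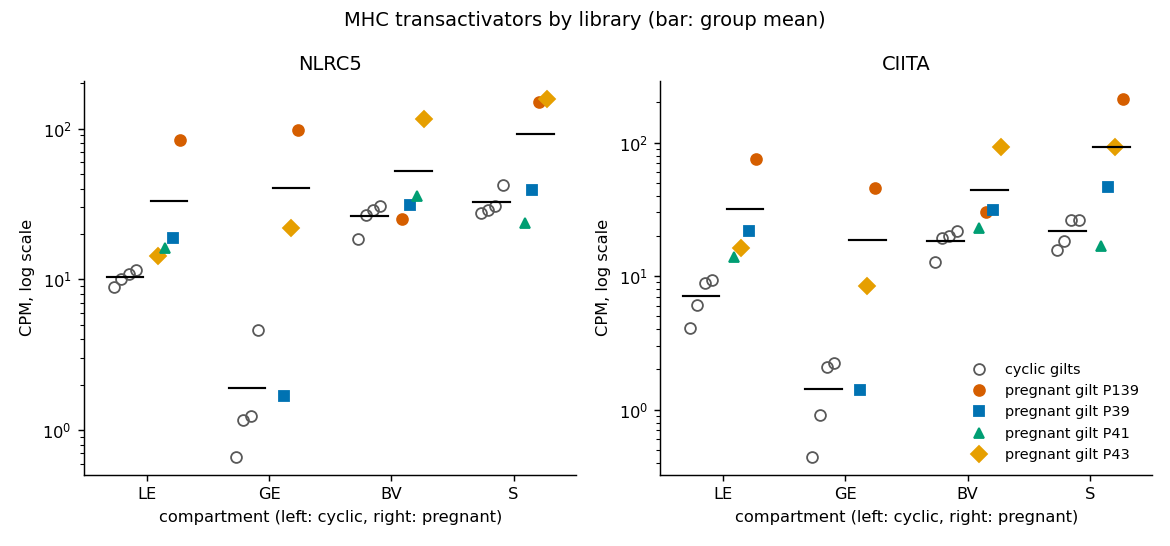
CPM of NLRC5 and CIITA (log axis) in every library, by compartment, with cyclic gilts as open circles, pregnant gilts as filled symbols and group means as bars. Gilt P139 stood highest in LE and GE and gilt P43 in BV, with pregnant gilt P39 among the cyclic libraries in GE.

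CD74 had 85.5, 110, 156 and 48.7 CPM in cyclic LE of gilts C128, C40, C42 and C78. In pregnant LE it had 298 CPM in gilt P39, 196 in gilts P41 and P43 and 170 in gilt P139. The groups did not overlap, and gilt P139, the highest for both transactivators, was here the lowest of the pregnant gilts (log2 fold change 1.10 ± 0.34, edgeR adjusted p = 0.0670). In GE, cyclic libraries held 11.2 to 21.0 CPM and pregnant gilts P139, P43 and P39 held 139.4, 59.0 and 43.1. Here too all pregnant libraries were above the cyclic ones (log2 fold change 2.16 ± 0.42, adjusted p = 0.0490, unadjusted 8.23e-04, edgeR), and without gilt P139 the value was 1.51. In S, pregnant gilts P139, P43, P39 and P41 had 1051, 536, 373 and 226 CPM against 182 to 335 in cyclic S. Gilt P41 was inside the cyclic range (log2 fold change 1.07 ± 0.42, edgeR adjusted p = 0.292), and without gilt P139 the value was 0.54. In BV the pregnant range of 216 to 517 CPM overlapped the cyclic one of 216 to 340 (log2 fold change 0.52 ± 0.27, adjusted p = 0.232, edgeR).

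SLA-DRA was measured as the other class II gene. In LE, cyclic gilts C128, C40, C42 and C78 had 43.02, 80.0, 108 and 22.3 CPM, and pregnant gilts P39, P41, P43 and P139 had 172, 140, 134 and 99.4. Gilt P139 lay within the cyclic range, and the other 3 above it (log2 fold change 1.11 ± 0.43, edgeR adjusted p = 0.128). In GE the cyclic libraries ranged from 10.2 to 20.2 CPM and the pregnant ones were 81.8, 39.9 and 28.0 in gilts P139, P43 and P39. They did not overlap (log2 fold change 1.80 ± 0.39, adjusted p = 0.0568, edgeR). The log2 fold change was 1.11 ± 0.45 in S and 0.14 ± 0.35 in BV (adjusted p = 0.308 and 0.821, edgeR), with overlap in both, and pregnant S reached 702 CPM in gilt P139 against at most 184 in cyclic S. Without gilt P139 the value in S was 0.42, and without gilt P43 that in BV was -0.13.

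**Figure D3:**
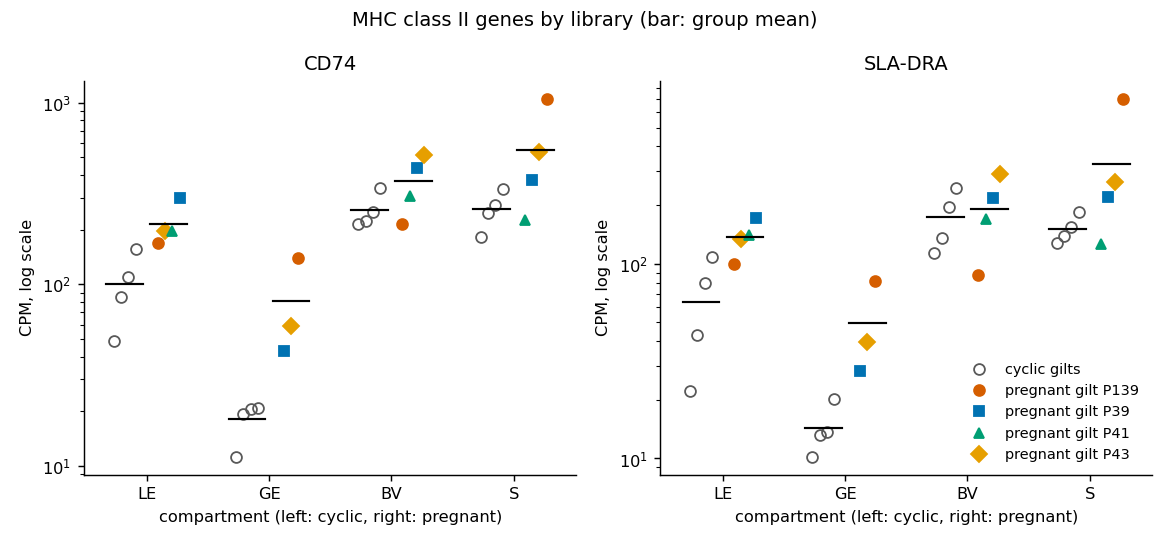
CPM of CD74 and SLA-DRA (log axis) in every library, by compartment, with cyclic gilts as open circles, pregnant gilts as filled symbols and group means as bars. The groups were apart for both genes in GE, and for CD74 also in LE, where gilt P139 was the lowest pregnant library.

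Leukocytes carry class II molecules, and 22 leukocyte markers were therefore followed. Their summed level was 72.2 to 101 CPM in cyclic GE and 150 to 264 in pregnant GE, with 21 of 22 markers counted and MS4A1 at 0 in both groups. In LE it was 135 to 242 CPM in cyclic and 208 to 350 in pregnant libraries, with CD79A and MS4A1 at 0 in the cyclic group and MS4A1 at 0 in the pregnant group. In BV the ranges were 419 to 945 and 234 to 1091 CPM, and in S 353 to 1517 and 677 to 961. Of the leukocyte markers tested, 10 of 10 in GE, 14 of 16 in S, 11 of 13 in BV and 7 of 8 in LE were higher in the pregnant group. Their median log2 fold changes were 1.18, 0.44, 0.55 and 0.72. In any compartment 0 were called by the quasi-likelihood test of edgeR. An unadjusted p under 0.05 was reached by 5 of 10 in GE (23% of all genes), 3 of 16 in S (14.5%), 2 of 13 in BV (28.5%) and 2 of 8 in LE (26.9%). Endothelium markers were followed as well, and in LE their sums were 125 to 690 CPM in cyclic libraries. Pregnant gilts P39, P41, P43 and P139 had 990, 772, 754 and 416 CPM. Of the 5 endothelium genes tested in LE, 5 were higher in the pregnant group (median log2 fold change 0.80). An unadjusted p under 0.05 was reached by 1 of them (26.9% of all genes), and 0 were called by edgeR. Higher in the pregnant group were also 5 of 5 endothelium genes in GE, 6 of 6 in S and 4 of 6 in BV. Their medians were 1.07, 0.51 and 0.23. At an unadjusted p under 0.05 were 1 in GE (23% of all genes), 0 in S (14.5%) and 1 in BV (28.5%), with 0 called by edgeR. The part of leukocytes and endothelium in the levels of CD74 and SLA-DRA was not tested.

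Among the class I members, the light chain gene B2M (110255236) had 1875, 692, 1513 and 776 CPM in LE of cyclic gilts C128, C40, C42 and C78. In LE of pregnant gilts P139, P39, P41 and P43 it had 1424, 1386, 1200 and 1296, so that the pregnant values lay inside the cyclic range (log2 fold change 0.13 ± 0.32, edgeR adjusted p = 0.831). B2M (397033) gave 0.08 ± 0.31 in LE. The ratio of the 2 records was 1.28 to 1.74 over the 31 libraries. In the other compartments the B2M records had log2 fold changes of 0.73 and 0.58 in S, 0.68 and 0.67 in GE and 0.13 and 0.09 in BV, with overlapping groups in each. In S, gilt P139 held 2708 CPM of B2M (110255236) and gilt P43 held 1553, against 835 to 1060 in cyclic S.

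TAP1, which moves peptides together with TAP2, had 24.5 to 85.5 CPM in cyclic LE, and in pregnant LE 112 in gilt P139, 40.9 in gilt P39, 27.7 in gilt P43 and 25.9 in gilt P41. Only gilt P139 exceeded the cyclic range (log2 fold change 0.14 ± 0.55, edgeR adjusted p = 0.895), and without it the value was -0.58. In GE, pregnant gilts P139, P43 and P39 had 191, 37.9 and 10.6 CPM, against 9.72 to 18.9 in cyclic GE. Gilts P139 and P43 were above and gilt P39 inside the cyclic range (log2 fold change 2.47 ± 0.81, adjusted p = 0.127, edgeR), and without gilt P139 the value was 0.75. In S, the pregnant libraries split in the same way, with 257 CPM in gilt P139 and 132 in gilt P43 above the cyclic range of 30.5 to 51.8, and 48.3 in gilt P39 and 33.5 in gilt P41 inside it (log2 fold change 1.56 ± 0.56, edgeR adjusted p = 0.260). The value in S was 0.83 without gilt P139. In BV gilt P43 had 101 CPM and the other pregnant gilts 26.1 to 49.6, against 23.4 to 41.8 in cyclic BV (log2 fold change 0.79 ± 0.37, adjusted p = 0.196, edgeR).

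TAP2 ranged from 11.3 to 15.0 CPM in cyclic GE and reached 55.9 in GE of gilt P139, while gilts P39 and P43 had 10.9 and 14.6. Its log2 fold changes were 1.09 in GE, 1.04 in S, 0.42 in BV and -0.32 in LE, and that of GE became -0.0018 without gilt P139. TAPBP had log2 fold changes of 0.85 in S, 0.46 in BV, 0.42 in GE and 0.17 in LE. In S its groups did not overlap, with 205, 167, 85.5 and 82.3 CPM in pregnant gilts P139, P43, P39 and P41 against 67.7 to 81.3 in cyclic S (SE 0.29, edgeR adjusted p = 0.244).

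PSMB8, a catalytic subunit of the immunoproteasome, had 2.10 to 7.10 CPM in cyclic GE and 34.1, 2.80 and 3.56 in pregnant gilts P139, P39 and P43. Gilt P139 alone was above the cyclic libraries (log2 fold change 1.93 ± 0.89, edgeR adjusted p = 0.242), and without it the value was -0.16. In S, PSMB8 was at 76.2 CPM in gilt P139 and 41.8 in gilt P43, above the cyclic range of 9.72 to 16.9, with gilts P39 and P41 at 14.9 and 16.4 inside it (log2 fold change 1.42 ± 0.49, adjusted p = 0.245, edgeR), and without gilt P139 the value was 0.80. Its log2 fold change was 0.04 in LE and 0.54 in BV. PSMB9 had few counts in GE, between 1 and 6 in a cyclic library, and 67, 8 and 1 in pregnant gilts P139, P43 and P39. In S it had 25.8 CPM in gilt P139, 13.1 in gilt P43, 4.46 in gilt P39 and 2.95 in gilt P41, against 3.85 to 6.64 in cyclic S (log2 fold change 1.11 ± 0.60, edgeR adjusted p = 0.427), and without gilt P139 the value was 0.34. In LE it had 1.99 to 6.48 CPM in pregnant and 2.16 to 5.43 in cyclic libraries (log2 fold change -0.17 ± 0.48).

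The same pregnant gilts had the highest values for most of the genes in a compartment. In GE, gilt P139 had the highest pregnant value for 11 of 11 records, all of them above every cyclic library (27.8% of all genes were), with ratios to the cyclic mean of 1.68 to 51.0 and a median of 7.73. Gilt P43 was above every cyclic GE library for 9 of 11 (27.1% of all genes) and gilt P39 for 2 of 11 (26%), those of CD74 and SLA-DRA. In S, gilts P139 and P43 exceeded every cyclic library for 11 of 11 records each (25.6% and 24.6% of all genes), with median ratios of 4.63 and 2.43, while gilt P39 did so for 6 of 11 (24.5%) and gilt P41 for 1 of 11 (21.6%). In BV it was gilt P43 that exceeded all cyclic libraries for 11 of 11 (29.2% of all genes, median ratio 2.12), beside 5 of 11 in gilt P39 (28.9%), 4 of 11 in gilt P41 (26.5%) and 1 of 11 in gilt P139 (27.4%). Gilt P139, the highest pregnant gilt for 9 of 11 records in LE and 10 of 11 in S, was the lowest for 9 of 11 in BV. It was below every cyclic BV library for 5 of 11 records (29.3% of all genes were). In LE, gilt P139 exceeded all cyclic libraries for 8 of 11 (29.7% of all genes) and gilts P39, P41 and P43 for 4 each (26.8%, 22.1% and 24.6%). The records share a library and its depth, so these counts are not independent.

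**Figure D4:**
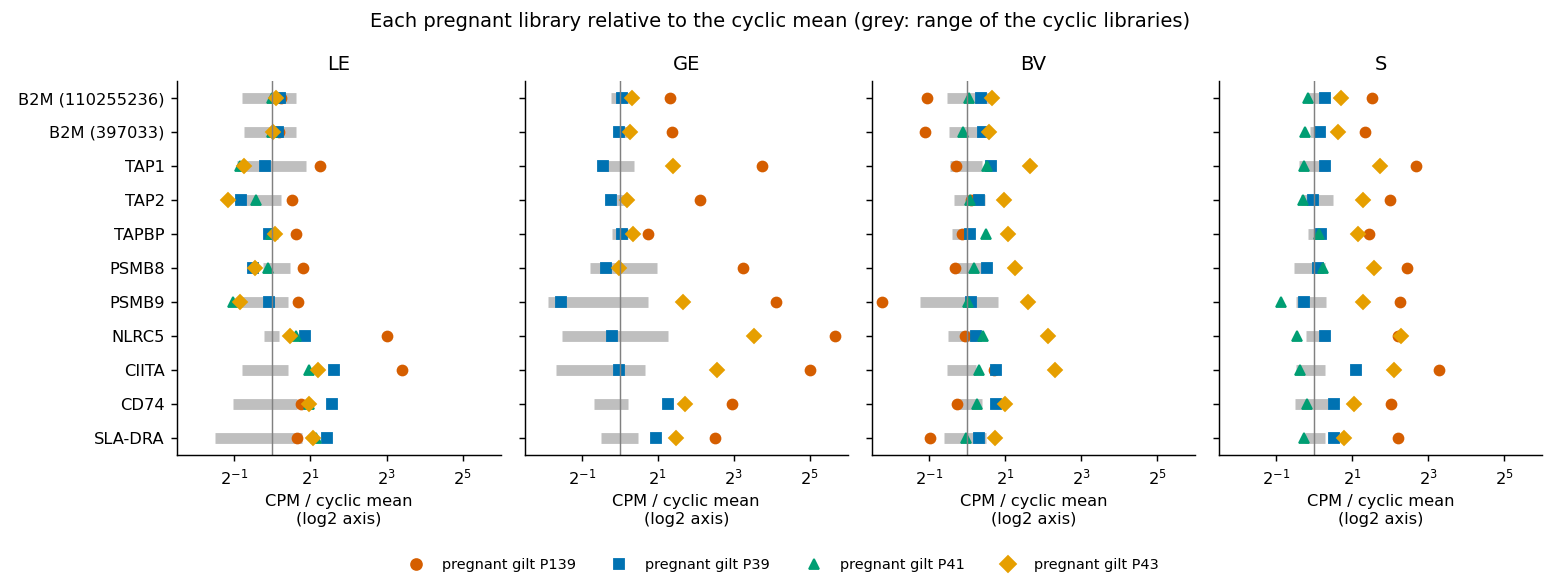
CPM of each pregnant library divided by the mean of the cyclic libraries (log2 axis) for every record, by compartment, with a symbol for each pregnant gilt and the range of the cyclic libraries in grey. Gilt P139 was to the right of the cyclic range for all records in GE and S and to the left or inside it for all but CIITA in BV, where gilt P43 was farthest to the right.

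JAK1, a kinase of interferon receptors, had 170 ± 32.9 CPM in cyclic and 324 ± 58.3 in pregnant LE (SD, n = 4 each, edgeR adjusted p = 0.0185), without overlap of the groups, and was not called. Endothelium markers were highest in gilt P139 in GE and S, with a sum of 184 CPM in GE against 16.8 to 46.4 in cyclic GE, and of 2584 in S against 483 to 1542. In BV, gilt P139 had the lowest leukocyte sum, 234 CPM. The part of these cells in the gilt differences was not tested.

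The heavy chains of class I, the partners of B2M, had calls in LE. SLA-3 rose from 162 ± 13.5 to 813 ± 329 CPM (SD, n = 4 each, log2 fold change 2.33 ± 0.32, edgeR adjusted p = 0.00360) and SLA-2 from 159 ± 10.7 to 1565 ± 1275 (3.30 ± 0.54, adjusted p = 0.00672). Both were above the cyclic range in every pregnant gilt. Of the 7 heavy chain genes, 2 were called in LE (3.32% of all genes), 7 had positive values and the median log2 fold change was 1.81. The summed level of the list was 4904, 2747, 1496 and 2648 CPM in pregnant gilts P139, P39, P41 and P43, and 406 to 628 in cyclic LE. The groups did not overlap, whereas B2M in the same libraries stayed inside the cyclic range. Of these genes, 0 of 6 tested in GE and 0 of 7 in both BV and S were called by edgeR, with medians of 0.73 in GE and S and 0.23 in BV. An unadjusted p under 0.05 was reached by 6 of 7 in LE (26.9% of all genes), 3 in GE (23%), 2 in BV (28.5%) and 2 in S (14.5%). In LE 5 of 7 lay above the cyclic libraries in every pregnant gilt (10.3% of all genes). These genes are close paralogs, so reads may be split among them and the value of a single heavy chain gene is uncertain.

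**Figure D5:**
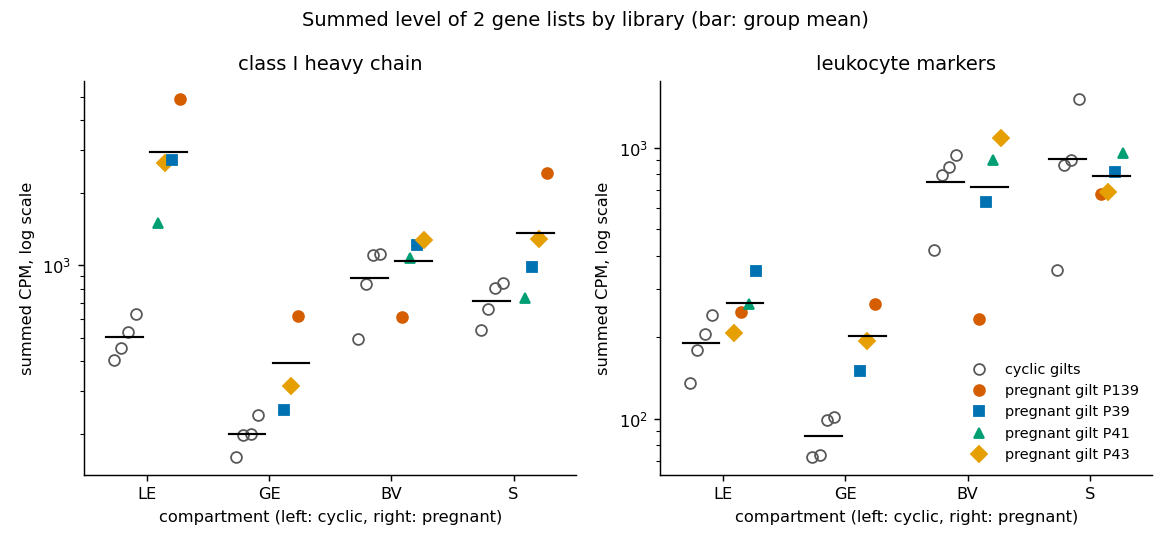
Summed CPM (log axis) of 7 class I heavy chain genes and 22 leukocyte markers in every library, by compartment, with cyclic gilts as open circles, pregnant gilts as filled symbols and group means as bars. In LE the heavy chain sums of the pregnant gilts, 1496 to 4904, were all above those of the cyclic gilts, 406 to 628.

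Among the other genes of the pathway, IFI30, the thiol reductase that unfolds antigens for class II loading, rose in LE from 25.2 ± 7.86 to 78.4 ± 20.5 CPM (SD, n = 4 each, log2 fold change 1.64 ± 0.29, edgeR adjusted p = 0.00910). It was the single call among the 5 tested class II processing genes in LE (3.32% of all genes called), whose median was 0.66. In GE, BV or S 0 of 6 were called, with 3 (23% of all genes), 0 (28.5%) and 3 (14.5%) at an unadjusted p under 0.05. Class II chains and editors had 0 calls in every compartment, with positive values for 7 of 7 tested in S, 6 of 6 in LE, 5 of 5 in GE and 4 of 5 in BV and medians of 1.14, 0.89, 1.45 and 0.38. An unadjusted p under 0.05 was seen for 4, 3, 5 and 1 of them, beside 14.5%, 26.9%, 23% and 28.5% of all genes. The smallest was that of SLA-DMA, a subunit of the class II peptide editor, in LE (6.92 ± 2.26 to 17.7 ± 2.61 CPM, adjusted p = 0.0174, edgeR).

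The chaperones and loading factors of the endoplasmic reticulum held HSPA5 (BiP), a general chaperone that fell in BV from 396 ± 23.8 to 189 ± 15.4 CPM (log2 fold change -1.07 ± 0.12, edgeR adjusted p = 0.0130) and in S from 330 ± 46.4 to 186 ± 18.6 (-0.83 ± 0.15, adjusted p = 0.104). HSPA5 was called in BV (1.86% of all genes) and in S (0.293%). None of the other 6 genes of that list was called, and list medians were 0.09 in LE, -0.33 in BV, -0.20 in S and -0.10 in GE. An unadjusted p under 0.05 was reached by 4 of 7 in BV, 2 in GE, 2 in S and 0 in LE (28.5%, 23%, 14.5% and 26.9% of all genes). In BV 2 of 7 were higher in the pregnant group. The summed level there was 1668 to 1850 CPM in cyclic and 1054 to 1306 in pregnant libraries. The proteasome genes PSMB10, PSME1, PSME2 and PSME3 had 0 of 4 calls in each compartment (3, 1, 2 and 1 at an unadjusted p under 0.05 in LE, GE, BV and S). Over all genes, 26.9%, 23%, 28.5% and 14.5% reached such a p in these compartments. PSME3 in GE had the smallest p of the 4 genes (70.7 ± 8.59 to 46.4 ± 1.32 CPM, adjusted p = 0.0744, edgeR). The constitutive proteasome subunits PSMB5, PSMB6 and PSMB7 had 0 of 3 calls (1, 2, 1 and 0 at an unadjusted p under 0.05), with medians of -0.28, -0.55, -0.49 and -0.21. PSMB6 in GE came nearest to the threshold (37.5 ± 11.7 to 20.8 ± 2.63 CPM, adjusted p = 0.121, edgeR). The RFX, NF-Y and CREB1 genes through which both transactivators act had no call either (0, 2, 1 and 0 at an unadjusted p under 0.05), with medians between -0.22 and 0.02 and NFYA in GE having the smallest p (91.9 ± 16.9 to 57.4 ± 13.9 CPM, adjusted p = 0.124, edgeR).

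Whether the pregnancy effect on a gene differed between compartments was tested as an interaction in a joint fit of all 31 libraries. That fit had no term for the gilt. Of the 10 records tested, 0 passed a false discovery rate of 1%, which 2.09% of all genes did, and NLRC5 alone had an unadjusted p under 0.05 (0.0396, edgeR adjusted p = 0.196). PSMB9 was not among them, since it was below the filter in GE and BV.

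Levels were then compared between compartments, averaged over pregnant and cyclic libraries, with CPM from a joint normalization of all libraries. GE had the lowest mean for 10 of the 11 records. CD74 had 41.5 ± 41.7 CPM in GE (SD, n = 7), 156 ± 76.7 in LE, 329 ± 118 in BV and 410.5 ± 292 in S (n = 8 each). SLA-DRA had the same order at 27.4, 98.8, 190 and 244 CPM. Neighbours in this order differed from GE to LE and from LE to BV for both genes, but not from BV to S. LE was above GE for 4 of 11 records, both of B2M (fold 2.67 and 2.61), CD74 (4.11) and SLA-DRA (3.71), where 40.1% of all genes were called. LE was below BV for 2 of 11, CD74 and SLA-DRA (47.5% of all genes called in either direction), and below S for 4 of 11, these 2 with NLRC5 and CIITA (48.5%). GE was below BV for 7 of 11 (56.9% of all genes) and below S for 9 of 11 (57.5%), all but TAP1 and TAPBP. BV and S differed for 0 of 11 (5.94% of all genes called, 0 of 11 at an unadjusted p under 0.05, edgeR). TAPBP had 122, 101, 98.2 and 107 CPM in LE, GE, BV and S, and it was called in 0 of these comparisons.

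Leaving out a gilt moved some of these counts. Without gilt P139, 7 of 11 records differed between LE and GE and 5 of 11 between LE and BV. Between LE and BV 1 record, CD74, was called without gilt C128, C40, C78, P39, P41 or P43. Between LE and S 2 records, CD74 and SLA-DRA, were called without gilt C128, C40, C42, C78 or P43.

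The genes with the pattern most like TAP1 and CD74 were sought among 13886 genes by Pearson correlation of log2(CPM + 1) over the 31 libraries. For TAP1 they included PSMB9 (r = 0.919), LOC102161784 (0.912), STAT2 (0.910) and LOC100155195 (0.904). For CD74 they were SLA-DRA (0.983), LOC100153139 (0.975), SLA-DQB1 (0.975), PLXND1 (0.963) and ETS1 (0.961). STAT2 carries interferon signals to the nucleus, and SLA-DQB1 is the beta chain of another class II molecule. The libraries share compartments and gilts and are no independent points, and differences between compartments enter these values.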

How the data were processed

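RNA of laser captured LE, GE, BV and S was sequenced from libraries of the Ovation SoLo kit. The deposited values are whole-number counts per NCBI gene in 1 column per library. The authors trimmed with Trim Galore, aligned by Hisat2 to the NCBI build Sscrofa11.1, took out PCR duplicates with nudup, counted with QuasR and deposited a full and a filtered table per compartment. No strand setting is given in the sources used here. TAP1 and PSMB9 adjoin on opposite strands, but their annotated spans do not overlap, with 143 bases between their starts. How reads from beyond an annotated start were counted is not known. The members and gene lists were chosen with earlier results of these data known.

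Counts of the filtered tables (12002, 11905, 11096 and 11935 genes in LE, GE, BV and S) were fitted per compartment with the quasi-likelihood test of edgeR 4.0.16 (R 4.3.3, TMM), and p-values adjusted by the Benjamini-Hochberg method over all genes. The fit was tested on simulated data. Interactions and levels came from joint fits of all libraries. Named were all members, pathway genes called in any compartment, of each list without a call the gene with the smallest p, and the genes most correlated with TAP1 and CD74. Some results are not reported here. Alternatives were DESeq2 1.42.0, the robust GLM, RLE normalization, other filters, a false discovery rate of 5%, the gilt as a block and left-out libraries. The number in the labels was taken as the gilt. As a check, libraries with the same number were correlated over compartments (45 pairs, r from -0.16 to 0.35, median 0.16). These correlations alone do not establish the pairing. The main joint fits had no term for the gilt and took the libraries of a gilt as independent. Only the alternative with the gilt as a block paired them. A sum of 3 counts over the libraries of a group came to 0.173 to 0.279 CPM.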

Additional observations from a re-analysis of the deposited data

Results flagged for a closer look

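Of 77 groups of 4 libraries, each holding the CPM of a record in a compartment and group, 7 had a library farther from the other 3 than Dixon's 95% criterion allows, a criterion that chance alone meets in about 1 in 20 groups. Pregnant GE, with 3 libraries, could not be examined in this way. In pregnant LE, P139 stood above the others with 84.3 CPM of NLRC5 (others 14.3 to 18.7) and 75.6 CPM of CIITA (others 13.9 to 21.9). In pregnant BV the library that stood above the others was P43, with 115.9 CPM of NLRC5 (others 25.3 to 35.5) and 92.1 CPM of CIITA (others 23.1 to 31.1). In cyclic GE, C128 was high for PSMB8 with 7.10 CPM (others 2.10 to 2.66) and for NLRC5 with 4.58 CPM (others 0.665 to 1.25). In cyclic LE, C78 was low for TAP2 with 17.5 CPM (others 34.0 to 36.3). In both pregnant groups the transactivators NLRC5 and CIITA stood apart in the same library.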

How the results depend on the processing

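The count of antigen presentation genes called between pregnant and cyclic libraries depended on the test. The quasi-likelihood test of edgeR called 0 in each compartment. DESeq2 called 1 record in LE, 5 in GE and 1 in S, and the robust GLM 2, 3 and 2. A false discovery rate of 5% within the compartment gave 1 record in LE (CIITA) and 1 in GE (CD74), and dropping the filter on low counts gave 1 in GE (CD74). RLE normalization and the filter of edgeR's filterByExpr left these counts at 0, and in BV the count was 0 under every test and filter run. The robust GLM turned the log2 fold change in LE of TAP1 to -0.10 and of PSMB8 to -0.11. Leaving out a library in turn changed the sign of several small log2 fold changes. In LE these were the B2M records 110255236 (-0.065 to 0.42) and 397033 (-0.10 to 0.36), TAP1 (-0.58 to 0.61), TAPBP (-0.022 to 0.24), PSMB8 (-0.34 to 0.23) and PSMB9 (-0.62 to 0.062). In GE they were TAP2 (-0.0018 to 1.45) and PSMB8 (-0.16 to 2.50), both lowest without P139. In BV they were the B2M records 110255236 (-0.089 to 0.41) and 397033 (-0.13 to 0.35) and SLA-DRA (-0.13 to 0.38), lowest without P43. NLRC5, CIITA and CD74 had positive values in every compartment without any single library. With a gilt left out, the number of records whose level differed was 4 to 7 between LE and GE, 1 to 5 between LE and BV and 2 to 4 between LE and S. With the gilt as a block, which pairs the compartments of an animal, 5 records differed between LE and GE, 2 between LE and BV, 4 between LE and S, 9 between GE and BV, 10 between GE and S and 0 between BV and S, and 0 interactions were called. No block could be set between pregnant and cyclic libraries, which come from different gilts. The cause of these shifts was not tested. Depth limits the lowest values: 3 counts over a group came to 0.173 to 0.279 CPM, and PSMB9, CIITA and NLRC5 in cyclic GE rest on 1 to 20 counts a library.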
